A study of Mus musculus with 26 samples.

Results

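Several liver tumours taken from one mouse can be compared with each other, with tumours of other mice and with tumour-free liver. The libraries described here are the 8 of 26 whose titles share an animal number, which was read as the same animal: CAB28-S and CAB28-L, GAB242-S, GAB242-M and GAB242-L, and GAB294-S, GAB294-M1 and GAB294-M2. The labels do not say what the letters S, M and L mean. All 3 numbers carried Arid2fl/fl together with Ctnnb1(ex3)fl/+. The CreERT2 was driven by Cyp1a2 (Cyp1a2-CreERT2) in CAB28 and by Gls2 (Gls2-CreERT2) in GAB242 and GAB294. All 3 animal numbers came from a mixed C57BL/6J and Swiss Webster background, were given tamoxifen at postnatal day 28 and were followed for 6 to 12 months. The 6 WT libraries came from livers of C57BL/6J mice without these alleles, which were given AAV-Cre and kept on normal chow for up to 12 months. WT therefore differed from the tumours in strain, alleles and treatment as well as in tissue, and it served here mainly as a measure of how much livers vary.

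The liver lobule is zoned: hepatocytes around the central vein receive Wnt signals, make glutamine synthetase (Glul) and express Cyp1a2, whereas hepatocytes around the portal tract carry the urea cycle and express Gls2. CreERT2 driven by Cyp1a2 or by Gls2 acts after tamoxifen in one or the other zone. Loss of Ctnnb1 exon 3 leaves a beta-catenin that escapes degradation and keeps Wnt target genes on, and Arid2 encodes a subunit of a SWI/SNF chromatin remodelling complex. Tumours in one liver may arise from separate hepatocytes that share the genome, age and environment of the mouse.

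The tumour libraries held 36992043 to 42865787 counts and the WT libraries 13486530 to 16975288. Levels are CPM, read counts scaled to a common library total after TMM scaling, and fold changes on the log2 scale are differences of fitted log2 CPM. The hepatocyte marker Alb was at 4454 to 18630 CPM in the 8 tumours and at 49510 to 69600 CPM in WT. Mitochondrially encoded genes took 2.11% to 6.73% of tumour counts and 8.90% to 11.1% of WT counts, and no pair of libraries was close enough to be a duplicate. Arid2 was at 25.8 to 39.2 CPM in the 8 tumours and 60.1 to 72.8 CPM in WT, and Ctnnb1 at 66.9 to 120.7 CPM and 145 to 174 CPM. Neither gene was called between tumours of any of the 3 animal numbers. A count per gene does not show which exons were removed. Xist was at most 3.65 CPM in the 8 tumours, and the summed level of 4 Y-linked genes was 80.2 to 248 CPM in GAB242, 416 to 552 CPM in the other 5 tumours and 184 to 224 CPM in WT.

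Tumours of one animal number differed in many autosomal genes when judged against the spread of the 6 WT livers. Called means an adjusted p under 0.05 in edgeR's quasi-likelihood test with Benjamini-Hochberg adjustment. Within CAB28, 489 autosomal genes were called, 2.91% of the 16833 tested. Within GAB242 there were 3421 (20.3%) and within GAB294 2827 (16.8%). In all, 5078 genes (30.2%) were called within at least 1 animal number, and 169 were called within all 3. GAB242 and GAB294 had 1296 called genes in common, 37.9% of the GAB242 genes and 45.8% of the GAB294 genes. Each tumour is 1 library and was assumed to vary like a WT liver, so these counts compare libraries, and their p-values cover the spread between samples only. When the other tumour libraries also entered the estimate of the spread, 0, 0 and 1 genes remained past the threshold in edgeR within CAB28, GAB242 and GAB294, with 245, 635 and 532 at an unadjusted p under 0.05. In that fit the differences between animals of 1 genotype are part of the spread.

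Single tumours stood apart within GAB242 and GAB294. In GAB242, the S and M tumours differed in 577 genes (3.43% of those tested), whereas L differed from S in 2847 (16.9%) and from M in 2492 (14.8%). Of all genes tested, 2.05% were lower in M than in S, and 6.37% were higher and 8.43% lower in L than in M. In GAB294, M2 differed from S in 685 genes (4.07%), M1 from S in 1417 (8.42%) and M1 from M2 in 2741 (16.3%). Of the 1417 genes in which M1 differed from S, 412 (2.45% of those tested) were higher in M1 and 1005 lower. The mitochondrial share of counts was 6.73%, 4.06% and 2.11% in GAB242-S, M and L. Of 14 immediate early and heat shock genes, 4 were higher and 0 lower in L against S (7.14% of all genes were higher), with a median log2 difference of 1.81. Their part in the differences of L was not tested. Without GAB242-L the count within GAB242 was 556, and without GAB294-M1 the count within GAB294 was 698 (1405 without GAB294-M2). CAB28-L differed from CAB28-S in 317 genes that were higher and 172 that were lower (1.02% of those tested).

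Pooled over the 3 animal numbers, the spread between tumours of one number exceeded that between WT livers for most genes. The median SD of log2 CPM was 0.40 within animal numbers and 0.25 in WT, each from 5 degrees of freedom, and the median ratio of the 2 was 1.57. Taken singly, the median ratio was 0.891 in CAB28, 1.46 in GAB242 and 1.43 in GAB294, and the median SD within CAB28 was 0.22, from 2 tumours. At equal spread, an SD from 2 or 3 libraries has a lower median than one from 6. The single ratios are therefore not on one scale, and 0.891 does not show that CAB28 tumours varied less than WT livers. The ratio was above 1 for 12813 genes (76.1%), above 2 for 5974 (35.5%) and above 4 for 1408 (8.36%), and it was under 0.5 for 616 (3.66%). It was larger for genes with high levels: the median ratio was 1.30 for genes under 1 CPM in WT and 2.18 for those over 100 CPM. Among the gene lists, portal genes had the largest median ratio (5.82), followed by collagens and matrix genes (5.33), stellate cell markers (3.804), Kupffer cell markers (3.29) and hypoxia and glycolysis genes (3.24). The lowest were red blood cell markers (0.62), T and NK cell markers (0.84), genes with known variants among laboratory strains (0.96) and acute phase proteins (1.06).

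**Figure D1:**
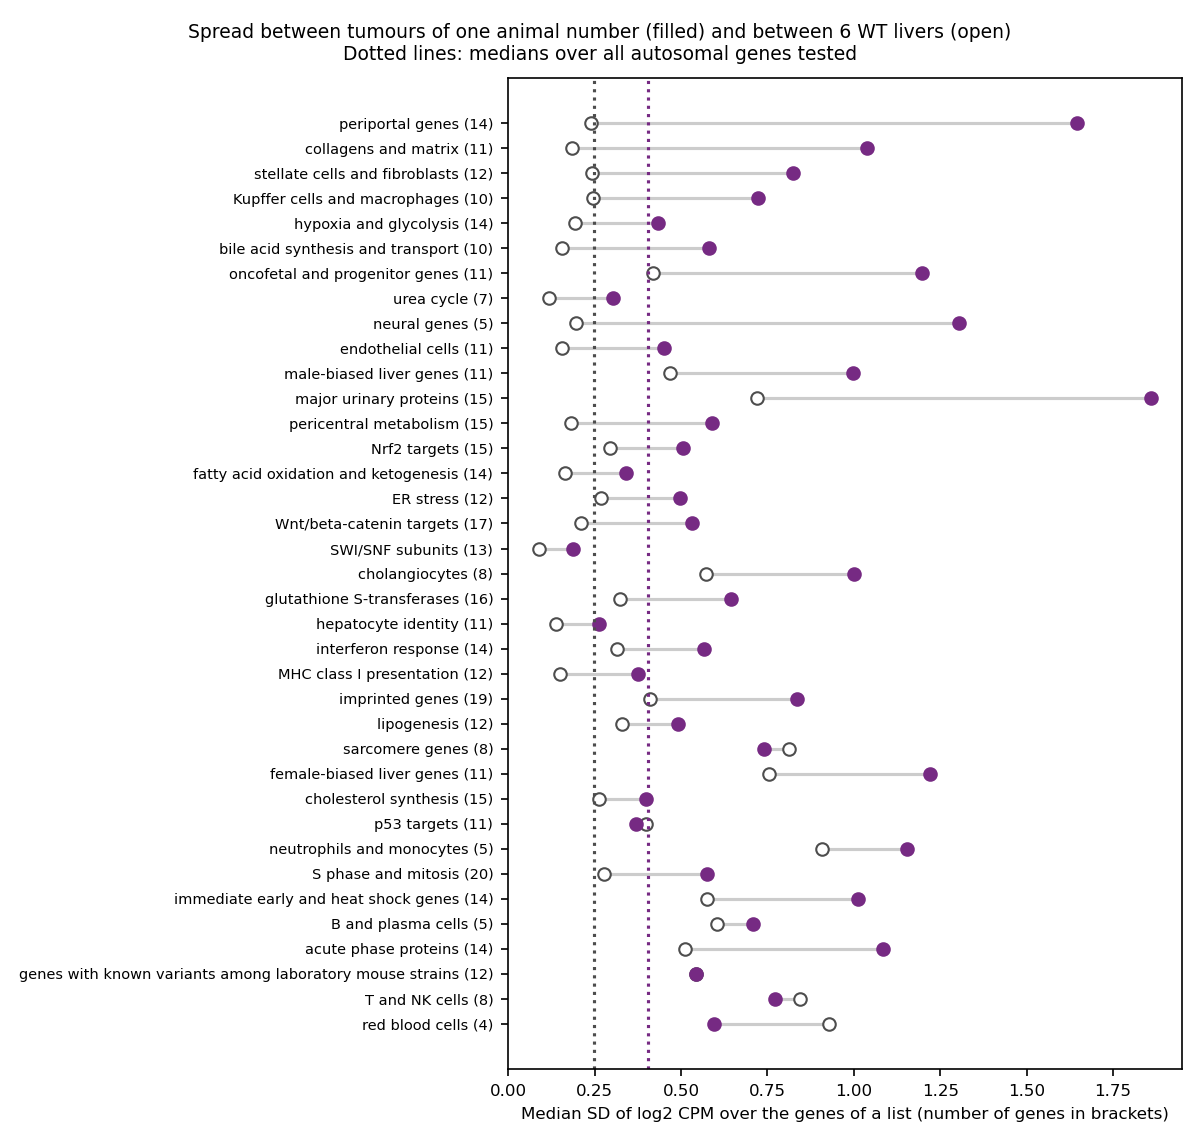
Median SD of log2 CPM (horizontal axis) over the genes of each list, within animal numbers (filled points, 8 tumours) and over 6 WT livers (open points), with lists ordered by the median ratio of the 2 SDs. Portal genes and matrix genes lie far to the right of their WT value, while red blood cell and T and NK cell markers lie at or left of it; dotted lines mark the medians over all autosomal genes, 0.25 in WT and 0.40 within animal numbers.

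Portal genes differed sharply within GAB294, where most of them were lowest in the M1 tumour. Of 14 portal genes tested, 12 were called within GAB294, against 16.8% of all autosomal genes. In M1 against S, 11 of the 14 were lower and 0 higher (5.97% of all genes were lower), with a median log2 difference of -4.27 against -0.01 over all genes. In M2 against S, 8 were lower and 0 higher (2.34% of all genes were lower and 1.73% higher). Arg1 (arginase, which releases urea) had 100.2 CPM in S, 0.805 CPM in M1 and 24.5 CPM in M2, while WT livers ranged from 966 to 1192 CPM. The 3 tumours thus spanned 125-fold (adjusted p = 2.1e-08, edgeR), and all lay below every WT liver. Gls2, the glutaminase of portal hepatocytes whose locus drives the CreERT2 in this animal, was at 45.0, 0.358 and 9.40 CPM in S, M1 and M2 (adjusted p = 8.1e-08), and at 191 to 233 CPM in WT. Cyp2f2, a portal cytochrome P450, was at 126, 1.22 and 25 CPM (adjusted p = 2.1e-08), against 1296 to 1607 CPM in WT. Cps1, which makes carbamoyl phosphate for the urea cycle, was at 699, 20.6 and 485 CPM (adjusted p = 7.6e-06). For each of these genes M1 was the lowest and S the highest tumour. Aspg, an asparaginase, had 38.8 CPM in S and 8.69 CPM in M2 and no count in M1, where a floor of 3 counts is 0.0894 CPM, so it was at least 434-fold lower in M1 than in S. Nnmt, a nicotinamide methyltransferase, and Kcnma1, a potassium channel gene, also had no count in M1 (at least 215-fold below S and at least 300-fold below M2).

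The same M1 tumour had the highest levels of Glul, Cyp1a2 and Slc1a2 of the 3. Glul was at 2344 CPM in S, 6190 CPM in M1 and 1914 CPM in M2, against 1008 to 1117 CPM in WT (adjusted p = 2.5e-05). Cyp1a2, a pericentral cytochrome P450 and the gene whose locus drives the other CreERT2, was at 310, 1103 and 178 CPM (adjusted p = 7.6e-06), and only M1 reached the WT range of 776 CPM or more. Slc1a2, a glutamate carrier and Wnt target, was at 1429, 3672 and 2152 CPM (adjusted p = 0.0033). Of 17 Wnt target genes, 9 were called within GAB294 and all 9 were lower in M2 than in M1 (7.07% of all genes were lower). Against S, 5 of the 17 were higher in M1 and 1 was lower (2.45% of all genes were higher and 5.97% lower). Of 15 pericentral genes, 5 rose in M1 against S and 0 fell (2.45% of all genes were higher). In M2 against M1, 3 of the 15 were lower and 0 higher (7.07% of all genes were lower). In the markers of other cells, M1 also differed: the summed level of the Kupffer cell markers was 68.3 CPM in M1 and 240.2 and 205 CPM in S and M2, and that of the cholangiocyte markers 22.3 CPM against 90.04 and 88.6 CPM. Alb was 7911 CPM in M1 and 6529 and 4454 CPM in S and M2. In bulk tissue, fewer cells of a type and less RNA per cell cannot be told apart, and the part of other cells in these differences was not tested.

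Zonation genes also differed within CAB28 and GAB242. Those called in CAB28 were all higher in L, portal and pericentral alike, whereas in GAB242 more were lower than higher in L. In CAB28, Glul was at 1167 CPM in S and 3204 CPM in L (adjusted p = 4e-04), and Slc1a2 at 847.5 and 2391 CPM (adjusted p = 0.0032). Cyp2f2 was likewise higher in L (15.4 and 105 CPM, adjusted p = 2.5e-05). Of 15 pericentral genes 5 rose in CAB28-L and 0 fell, and of 14 portal genes 3 rose and 0 fell (1.88% of all genes rose). In GAB242, Glul was at 3749 CPM in S, 1312 CPM in M and 1003 CPM in L (adjusted p = 1.1e-05), so that L lay just below the WT range. Cyp1a2 was at 541, 474 and 116 CPM (adjusted p = 3.2e-05) and Cyp2f2 at 46.7, 51.4 and 16.5 CPM (adjusted p = 2e-04), both lowest in L. In L against S, 3 of 15 pericentral genes were lower and 1 higher, and 4 of 14 portal genes were lower and 2 higher (9.77% of all genes were lower and 7.14% higher). Arg1 and Gls2 were not called within CAB28 or GAB242: Arg1 stayed between 66.1 and 89.5 CPM over these 5 tumours, and Gls2 between 24.1 and 37.1 CPM. Ass1, another urea cycle enzyme, went the opposite way, from 276 CPM in GAB242-S to 413 in M and 682 in L (adjusted p = 0.0038). The direct Wnt feedback gene Axin2 was not called within any animal number, with 85.4 to 249 CPM in the 8 tumours and 7.23 to 13.1 CPM in WT.

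**Figure D2:**
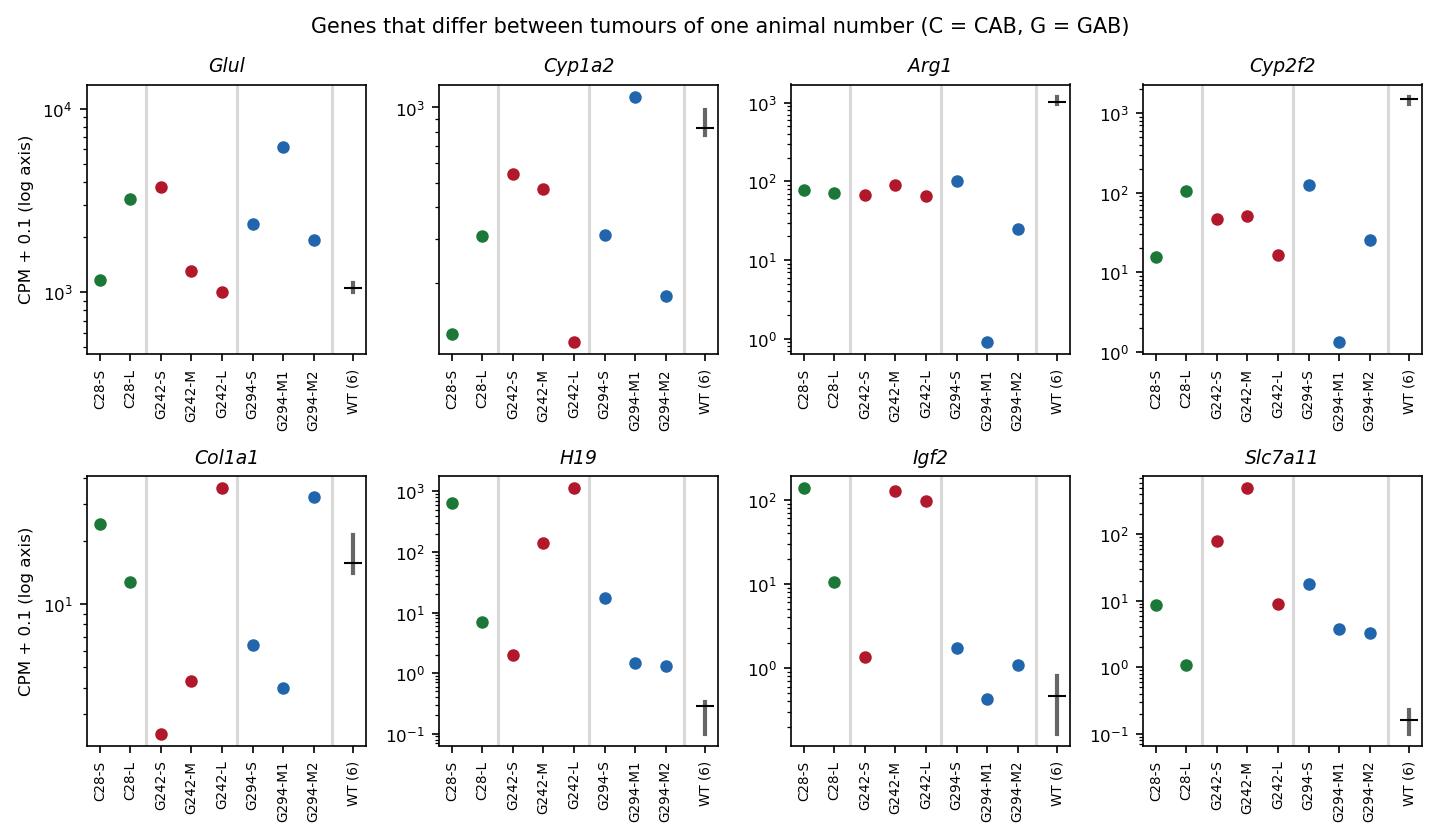
CPM + 0.1 on a log axis for 8 genes that differed between tumours of one animal number, 1 point per tumour library, with the range and median of 6 WT livers at the right. Arg1 and Cyp2f2 drop only in GAB294-M1 to about 1 CPM, where Glul and Cyp1a2 are highest, and H19 spans 1.87 to 1128 CPM within GAB242.

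The L tumours of CAB28 and GAB242 differed from the S tumours in opposite directions for many genes. Of 214 autosomal genes called in both differences, 163 (76.2%) had opposite signs and 51 (23.8%) the same sign. The difference between the 2 differences was tested as an interaction in edgeR, and 2164 of 16833 genes (12.9%) were called. The interaction value of Glul was -3.37 on the log2 scale (adjusted p = 2.6e-06), from 1.47 in CAB28 and -1.89 in GAB242. That of H19 was 15.78 (adjusted p = 2.1e-08), from -6.53 and 9.24. A called interaction need not mean opposite signs, since a difference in 1 animal alone can give one. Glul and H19 were called in both animals with opposite signs, so their called interaction was all but fixed in advance. The labels give these 2 animals different Cre drivers, and 1 animal of each cannot separate the driver from the animal.

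Matrix genes were higher in GAB242-L and in GAB294-M2 than in the other tumours of the same animal. Of 11 collagen and matrix genes tested, 9 were called within GAB242, all 9 higher in L than in S (7.14% of all genes were higher), and the median log2 difference was 1.93 against 0.00 over all genes. Within GAB294, 9 were called, and all 9 were higher in M2 than in M1 (9.21% of all genes). Within CAB28, 0 of 11 were called. Col1a1, the main fibrillar collagen, was at 2.32, 4.22 and 35.5 CPM in GAB242-S, M and L (adjusted p = 1.9e-05) and at 6.30, 3.88 and 32.2 CPM in GAB294-S, M1 and M2 (adjusted p = 0.00012). Only L and M2 lay above the WT range of 13.9 to 21.3 CPM. Col3a1 was at 4.62, 7.27 and 38.7 CPM in GAB242 (adjusted p = 1.5e-05), all below the WT range of 53.8 to 74.5 CPM. Sparc, a matrix glycoprotein of endothelial and stromal cells, was at 33.7, 33.0 and 255 CPM in GAB242 (adjusted p = 2e-06) against 54.1 to 67.8 CPM in WT. The summed level of the stellate cell and fibroblast markers was 96.9, 163 and 301 CPM in GAB242-S, M and L and 174, 150 and 206 CPM in GAB294-S, M1 and M2. It was 272 and 225 CPM in CAB28-S and L, above GAB294-M2, against 342 to 446 CPM in WT. Its part in the single genes was not tested, and Col1a1 is a member of both lists.

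Macrophage markers followed a different order. Of 10 Kupffer cell and macrophage markers tested, 9 were called within GAB294, and all 9 were lower in M1 than in S (5.97% of all genes were lower). Clec4f, a lectin found on Kupffer cells, was at 19.4, 4.35 and 9.23 CPM in S, M1 and M2 (adjusted p = 8.4e-05), against 66.1 to 79.3 CPM in WT. Csf1r, the receptor that macrophages need to survive, was at 103, 26.8 and 96.4 CPM (adjusted p = 0.00029), with M1 below the WT range of 49.4 to 65.4 CPM and the other two above it. In GAB242, Clec4f was at 21.6, 30.1 and 10.1 CPM in S, M and L (adjusted p = 0.00046), and Timd4 at 6.00, 6.53 and 2.10 CPM (adjusted p = 0.014), whereas Csf1r was not called (95.4 to 121 CPM). Of 11 sinusoidal and other endothelial markers, 4 were lower in GAB242-L than in S and 0 higher (9.77% of all genes were lower), and 7 were higher in GAB294-M2 than in M1 and 0 lower (9.21% of all genes were higher).

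Fetal and imprinted genes gave some of the widest ranges. H19, an imprinted noncoding RNA of fetal liver, was at 646 and 6.89 CPM in CAB28-S and L (adjusted p = 4.4e-06). In GAB242 it was at 1.87, 141 and 1128 CPM in S, M and L (adjusted p = 2.7e-07), a 605-fold range, and in GAB294 at 17.5, 1.37 and 1.19 CPM (adjusted p = 1.4e-05). WT livers had at most 0.228 CPM, so every tumour lay above them. S was the highest tumour in CAB28 and GAB294 and the lowest in GAB242. Igf2, the fetal growth factor next to H19 on chromosome 7, was at 137 and 10.5 CPM in CAB28 (adjusted p = 0.001) and at 1.26, 127 and 97.8 CPM in GAB242 (adjusted p = 3.3e-05). In GAB294 all 3 tumours were between 0.328 and 1.62 CPM. H19 and Igf2 did not rank the GAB242 tumours alike: M and L differed in H19 (adjusted p = 7.2e-05) but not past the threshold in Igf2 (adjusted p = 0.50). Of 11 oncofetal and progenitor genes, 3 were called within CAB28, 8 within GAB242 and 6 within GAB294, against 2.91%, 20.3% and 16.8% of all genes. Afp, the fetal counterpart of albumin, was at 25.3 and 5.24 CPM in CAB28-S and L (adjusted p = 0.03) and at 1.86 to 5.25 CPM in the other 6 tumours.

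Several other genes ranged over more than 10-fold between tumours of one animal. Slc7a11, the cystine carrier that supplies glutathione synthesis, was at 80.8, 495 and 8.92 CPM in GAB242-S, M and L (adjusted p = 8.4e-07) and at no more than 0.128 CPM in WT. Bglap3, an osteocalcin-related gene, was at 0.378, 0.281 and 1867 CPM in GAB242-S, M and L (adjusted p = 3.6e-06), and GAB294-M2 had 13.2 CPM. Tff3, a trefoil peptide of mucus-secreting epithelia, was at 0.580, 1.64 and 169 CPM in GAB242 (adjusted p = 0.00025) and at 51.4 and 2.58 CPM in CAB28-S and L (adjusted p = 0.011). These 3 genes each peaked in a single tumour of GAB242, Slc7a11 in M and the other two in L. Cacna1b, a neuronal calcium channel subunit without a count in WT, was at 66.5 and 2.72 CPM in CAB28-S and L, at 144, 59.7 and 7.71 CPM in GAB242-S, M and L, and at 22.8, 1.58 and 0.475 CPM in GAB294-S, M1 and M2. It was called within all 3 animal numbers (adjusted p = 4e-04, 0.00024 and 8.6e-05), and S was the highest tumour in each. Igdcc4, an immunoglobulin-family receptor gene, was at 102 and 1.30 CPM in CAB28-S and L (adjusted p = 0.0015) and highest at 273 CPM in GAB242-L (adjusted p = 0.00037). Espn, an actin-bundling protein gene, was at 12.1, 0.119 and 81.9 CPM in GAB294-S, M1 and M2 (adjusted p = 6.9e-05), a 687-fold range.

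GAB242-L also differed from S in genes of glycolysis, division, interferon response and bile acid handling. Of 14 hypoxia and glycolysis genes, 8 were higher in L than in S and 1 lower, and of 20 S phase and mitosis genes 9 were higher and 0 lower (7.14% of all genes were higher and 9.77% lower). Against M, 9 of 14 glycolysis genes, 2 of 20 division genes and 0 of 14 interferon response genes were higher in L in edgeR (6.37% of all genes). Pkm, the pyruvate kinase that adult hepatocytes largely lack, was at 36.0, 36.9 and 130 CPM in S, M and L (adjusted p = 0.00016), against 9.75 to 12.8 CPM in WT. Cenpf, a kinetochore protein of dividing cells, was at 26.4, 17.9 and 55.2 CPM (adjusted p = 0.0017) against 0.782 to 1.31 CPM in WT. L was the highest of the 3 in both. Of 14 interferon response genes, 8 were higher in L than in S and 3 higher in M than in S (1.38% of all genes were higher in M). Isg15, a ubiquitin-like interferon product, was at 3.78, 7.24 and 12.4 CPM (adjusted p = 0.0068), and Ifit2, an interferon-induced RNA-binding protein, at 11.04, 54.1 and 38.0 CPM (adjusted p = 0.001). Abcb11, the canalicular bile salt export pump, was lowest in L at 220 CPM, against 680 and 624 CPM in S and M (adjusted p = 0.00039). Slc10a1, the bile acid uptake carrier, was at 94.1, 126 and 30.2 CPM (adjusted p = 1.6e-05). Of the SWI/SNF subunit genes, 3 of 13 were called within GAB242, a share near the 20.3% of all genes.

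Differences between tumours of one animal number often ran along whole chromosomes. For 9807 autosomal genes with at least 5 CPM, the median log2 CPM difference was taken over the genes of each chromosome, relative to all 9807. Over all pairs of WT livers the largest of 285 such medians was 0.07 in size. Of the 133 medians between tumours of one animal number, 93 were larger than that. In GAB242, the M tumour was lower than S by a median of 0.60 on chromosome 10, where 10.96% of genes lay above 0, and higher by 0.44 on chromosome 12, where 91.3% lay above 0. The first, middle and last parts of chromosome 10, with equal numbers of genes, gave -0.57, -0.60 and -0.62, so the shift ran along its whole length. GAB242-L was lower than S by a median of 0.58 on chromosome 5 and higher by 0.48 on chromosome 16. In GAB294, M1 was higher than S by a median of 0.49 on chromosome 12, and M2 was higher than S by 0.54 on chromosome 3, where 90.5% of genes lay above 0. CAB28 had smaller shifts, the largest being -0.20 on chromosome 11. DNA was not measured in these samples, and the origin of the shifts was not tested.

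**Figure D3:**
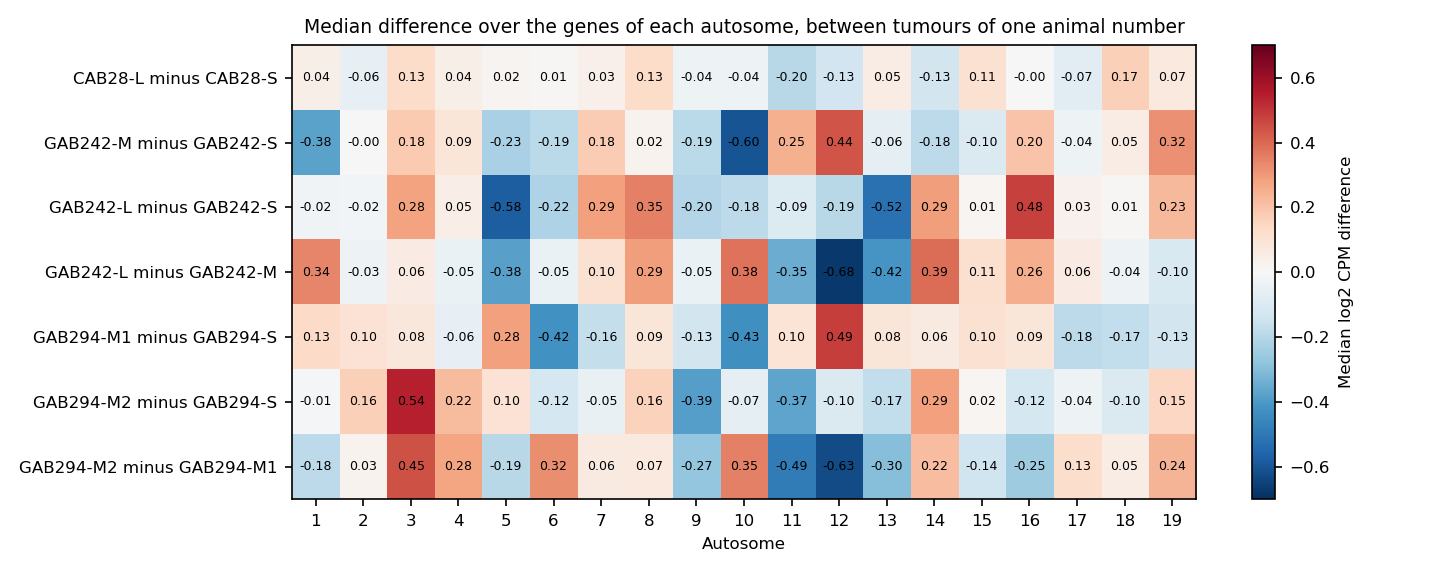
Median log2 CPM difference (colour and printed value) over the genes of each autosome (columns) for the 7 pairs of tumours with the same animal number (rows), 9807 genes with at least 5 CPM. The CAB28 row stays between -0.20 and 0.17, whereas rows of GAB242 and GAB294 reach -0.68 and 0.54, against at most 0.07 between WT livers.

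**Figure D4:**
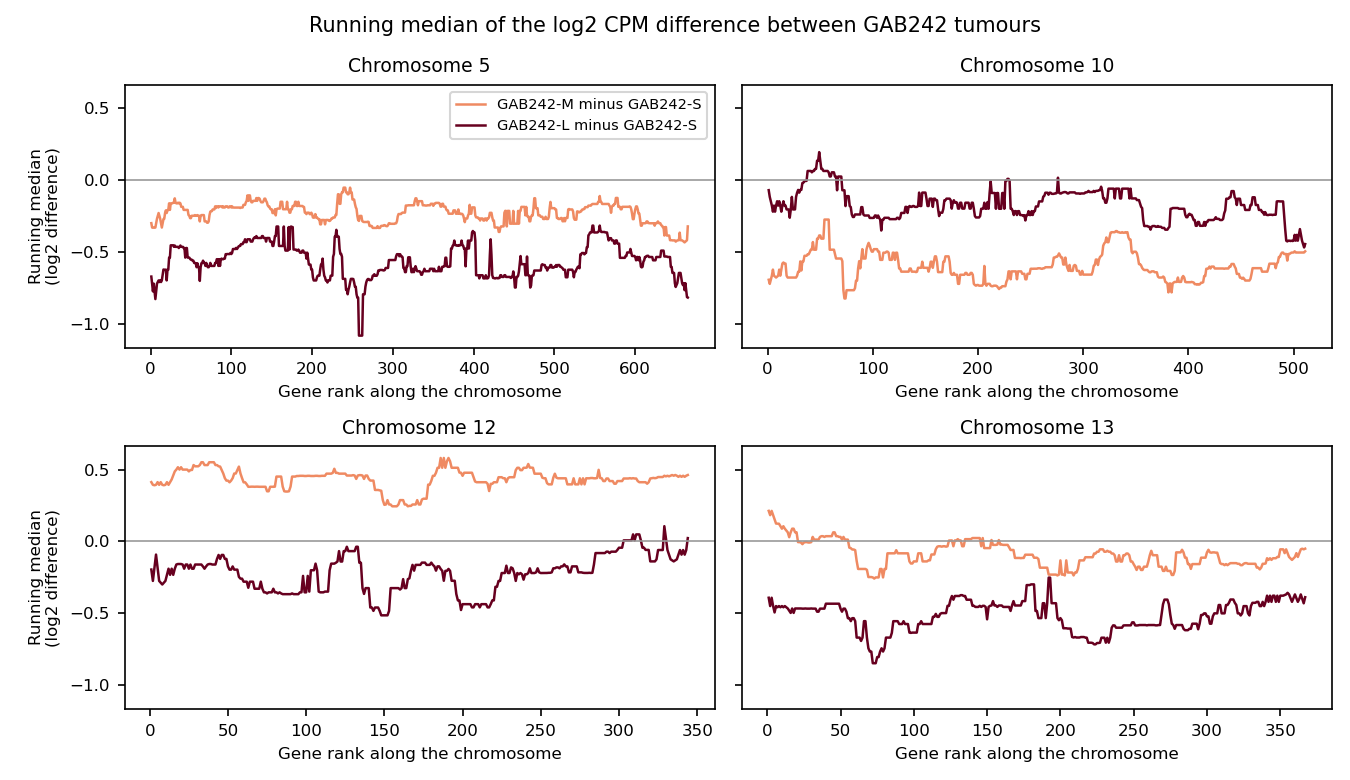
Running median over 31 genes of the log2 CPM difference from GAB242-S (vertical axis) along the order of genes on 4 chromosomes (horizontal axis), for GAB242-M and GAB242-L. The M line lies below 0 along chromosome 10 and above 0 along chromosome 12, and the L line lies below 0 along chromosomes 5 and 13.

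Within pairs of GAB242 or GAB294 tumours, the pooled share of called genes was higher on chromosomes with such shifts than on the rest. Not every shifted chromosome had a high share. In GAB242, 35.1% of the genes tested on chromosome 12, 32.4% on chromosome 10 and 31.1% on chromosome 5 were called, against 13.7% on chromosome 17, the lowest. In GAB294, the share was 28% on chromosome 12, 25% on chromosome 3 and 11.9% on chromosome 17. Some shifted chromosomes lay below the share of all genes. In GAB242, chromosome 8 had 16.3% against 20.3%, with L higher than S by a median of 0.35. In GAB294, chromosome 14 had 13.9% against 16.8%, with M2 higher than S by a median of 0.29. The medians and the calls come from the same libraries and are not independent. For GAB242-M against S, 5.54% of genes were called on the 6 chromosomes with a median over 0.2 in size and 2.36% on the rest. For GAB294-M1 against S the shares were 12.8% on 4 chromosomes and 7.28% on the rest. The contrast was smaller for GAB242-L against S (18.7% and 15.1%) and for GAB294-M2 against M1 (18.1% and 14.2%). The sharpest single genes were far larger than any chromosome median: on chromosome 10, where M1 was lower than S by a median of 0.43, Arg1 was lower by 6.96 and Gls2 by 6.96. On the chromosomes without such a shift, 972 genes were called between M1 and S.

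Few genes separated the animal numbers from each other once the spread between tumours was taken into account. The test over the 3 animal numbers called 75 of 16413 autosomal genes (0.457%), and GAB294 against GAB242, which share a genotype, gave 38 (0.232%), of which 19 were higher and 19 lower in GAB294 (0.116% of those tested each way). All 38 were without overlap between the 3 tumours of each, as were 15.1% of all genes tested. Of the 75 genes, 68 (90.7%) were not called within any animal number, while 30.2% of all genes were called within at least 1. The test over the animal numbers divides by the spread between tumours. By design, genes that vary within an animal number are therefore called less readily. Leaving out 1 tumour library at a time lowered both counts. Over the 3 animal numbers, 22 genes were called without CAB28-S, 27 without CAB28-L, 16, 9 and 63 without GAB242-S, M and L, and 17, 29 and 18 without GAB294-S, M1 and M2. In the same order GAB294 against GAB242 gave 22, 25, 5, 8, 21, 8, 11 and 7 calls. None of the genes of the Wnt target (17 tested), pericentral (15), portal (14), matrix (11), Kupffer cell (10) and stellate cell (12) lists was called in either comparison. Of all genes, 0.457% and 0.232% were called, and 1986 and 1674 autosomal genes had an unadjusted p under 0.05 in edgeR. Other lists held calls, such as Cd24a (1 of 11 oncofetal genes) and Selenbp2 (1 of 10 male-biased genes) over the 3 animal numbers. In GAB294 against GAB242, Cyp2a4 was called (1 of 11 female-biased genes). Of the 12 strain-variant genes measured, 0 of the 11 that could be tested here were called. With 0.457% of all genes called, lists this short would mostly give 0, so a count of 0 is no result about a list.

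Cwc22, a splicing factor gene on chromosome 2 (77881159 to 77946375 in mm10), separated the animals most firmly. It was at 741 and 664 CPM in CAB28-S and L, at 54.7, 56.5 and 50.5 CPM in GAB242-S, M and L, and at 704, 479 and 564 CPM in GAB294-S, M1 and M2. The 3 GAB242 tumours lay together and far below the other 5, and all 8 lay above the WT livers (12.1 to 18.3 CPM). GAB294 exceeded GAB242 by 3.44 ± 0.20 (SE) on the log2 scale (adjusted p = 0.0012), and the call held in all 18 alternatives. In the other 12 tumour libraries the level ran from 41.4 to 1258 CPM. As background, Cwc22 lies in a segment whose copy number varies among mouse stocks. Rpph1, the RNA of ribonuclease P, was at 196, 170 and 210 CPM in GAB294 and at 31.3 to 40.6 CPM in the other 5 tumours, with a difference from GAB242 of 2.46 ± 0.18 (SE, adjusted p = 0.0028). Arrdc3, an arrestin-family gene of receptor trafficking, was at 309, 354 and 240.1 CPM in GAB294 and at 44.1 to 75.6 CPM in the other 5 (2.58 ± 0.21, adjusted p = 0.0047). GAB294 stood apart from both other animals in these 2 genes, although the WT livers spanned 890 to 3000 CPM for Rpph1 and 43.0 to 236 CPM for Arrdc3. Cacna1a, another calcium channel subunit, was at 8.60, 6.29 and 12.8 CPM in GAB242 and 51.3 to 70.3 CPM in GAB294 (2.79 ± 0.29, adjusted p = 0.013).

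**Figure D5:**
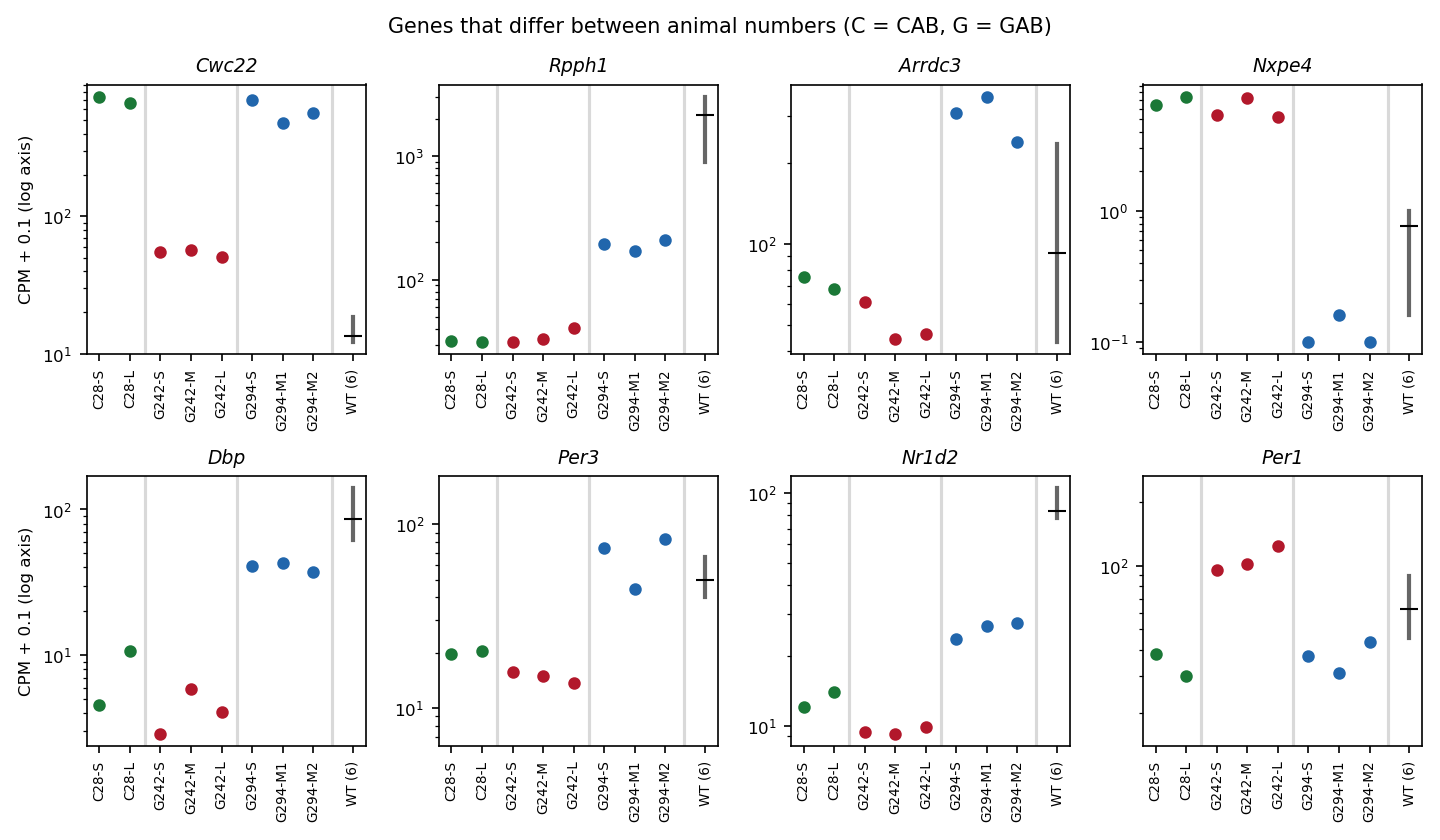
CPM + 0.1 on a log axis for 8 genes that differed between animal numbers, 1 point per tumour library, with the range and median of 6 WT livers at the right. The genes were called by a test that divides by the spread between tumours of one animal number, so closeness within a number is partly by design. Cwc22 is at 50.5 to 56.5 CPM in all 3 GAB242 tumours, and Rpph1 at 170 to 210 CPM in all 3 GAB294 tumours.

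Some genes were near absent from all tumours of one animal. Nxpe4, a neurexophilin-domain gene, was at 5.27, 7.19 and 5.12 CPM in GAB242 and at 6.27 and 7.29 CPM in CAB28, but GAB294-S and M2 had no count and M1 had 0.0596 CPM (adjusted p = 0.0072, edgeR). A floor of 3 counts is 0.0851 CPM in GAB294-S and 0.0712 CPM in GAB294-M2. Trim12a, a member of a Trim gene family, and Zfp970, a zinc finger gene, had no count in either CAB28 tumour, where the floor is 0.0840 and 0.0711 CPM. Trim12a was at 5.17 to 8.66 CPM in GAB242 and 10.4 to 15.7 CPM in GAB294 (adjusted p = 0.0037 over the 3 animal numbers), and Zfp970 at 4.14 to 10.1 CPM in the same 6 tumours (adjusted p = 0.013). Serpina1e, one of a family of near-identical alpha-1-antitrypsin genes whose reads could be shared among copies, was at 1446 and 794 CPM in CAB28, 10.2 to 16.0 CPM in GAB242 and 14.3 to 38.2 CPM in GAB294 (adjusted p = 0.002). Selenbp2, a selenium-binding protein gene more active in male liver, was at 45.0 and 55.9 CPM in CAB28 and 0.504 to 2.94 CPM in the other 6 tumours (adjusted p = 0.011), against 695 CPM or more in WT. For all of these the tumours of one animal lay on one side of the others, but CAB28 also has another Cre driver, and driver and animal cannot be told apart. Pttg1, securin of the mitotic spindle, was at 11.8, 13.4 and 11.6 CPM in GAB242 and 1.67, 2.62 and 1.42 CPM in GAB294 (adjusted p = 0.011). Zfp971, Gm14325 and Gm14403, close to Zfp970 on chromosome 2, were also called over the 3 animal numbers, with means of at most 0.0118 CPM in CAB28. Their means in GAB242 and GAB294 were 0.892 to 4.07 CPM. Trim5, close to Trim12a on chromosome 7, was called too, with means of 0.173, 0.64 and 3.25 CPM in CAB28, GAB242 and GAB294.

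Some genes of the circadian clock differed between the animals. The clock is a feedback loop in which Clock and Arntl bind E-box sequences and turn on Per and Cry genes, whose products repress them, while Dbp and Tef bind D-box sequences and Nr1d1 and Nr1d2 repress Arntl. These genes were looked at after their values were seen. Of 15 clock genes, 5 were called over the 3 animal numbers (0.457% of all genes). None of those 5 was called within an animal number, while 30.2% of all genes were called within at least 1. This was not particular to clock genes, as 68 of all 75 genes called over the animal numbers (90.7%) were not called within one. That test divides by the spread between tumours. Another 3 clock genes (Per2, Hlf and Cry2) were called within GAB242, and Cry2 also within GAB294. Promoter sequences of Per3 and Per1 are shown as examples that hold such elements. They are RefSeq promoters of GRCm38.p6 (mm10), from 250 bases before to 50 after the gene start, Per3 on the minus strand at chr4:151044616-151044915 and Per1 on the plus strand at chr11:69098699-69098998, with the D-box letters TTATGTAA and the E-box letters CACGTG in capitals.
Per3: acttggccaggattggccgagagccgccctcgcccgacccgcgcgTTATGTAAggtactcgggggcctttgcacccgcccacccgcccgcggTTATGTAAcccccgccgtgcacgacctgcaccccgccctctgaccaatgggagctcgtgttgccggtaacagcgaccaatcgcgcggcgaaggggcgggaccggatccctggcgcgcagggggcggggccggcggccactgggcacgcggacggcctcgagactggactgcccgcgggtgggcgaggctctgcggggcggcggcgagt
Per1: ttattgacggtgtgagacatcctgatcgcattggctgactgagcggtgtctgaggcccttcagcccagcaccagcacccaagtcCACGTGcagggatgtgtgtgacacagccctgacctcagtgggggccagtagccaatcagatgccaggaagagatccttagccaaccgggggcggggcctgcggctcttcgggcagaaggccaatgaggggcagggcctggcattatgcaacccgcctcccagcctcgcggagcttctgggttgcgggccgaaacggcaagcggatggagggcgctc
Both strands were searched, and the letters of these motifs do not overlap. Of 32851 RefSeq promoters, 308 (0.938%) hold TTATGTAA, 39 (0.119%) hold TTACGTAA, another D-box form that was searched, and 2349 (7.15%) hold CACGTG. The letters did not sort the genes by direction: both promoter entries of Tef, which was highest in GAB294 like Per3, also hold 1 CACGTG each, while those of Dbp and Nr1d2 and another entry of Per1 hold none of the motifs searched. A match of letters is a description and not a shown binding site.

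Dbp, a clock output factor, was at 4.42 and 10.6 CPM in CAB28, at 2.80, 5.81 and 4.01 CPM in GAB242 and at 40.6, 43.1 and 37.2 CPM in GAB294, which exceeded GAB242 by 3.26 ± 0.39 (SE, log2, adjusted p = 0.023). Per3 was at 19.6 and 20.3 CPM, at 15.7, 14.8 and 13.5 CPM and at 74.2, 44.3 and 83.5 CPM in the same order (2.20 ± 0.25, adjusted p = 0.023). In both genes the GAB294 tumours were the highest of the 8, and WT ranged from 61.3 to 140 CPM for Dbp and 40.2 to 66.6 CPM for Per3. Nr1d2, a repressor of the loop, was at 9.14 to 9.78 CPM in GAB242 and 23.5 to 27.6 CPM in GAB294 (1.46 ± 0.17, adjusted p = 0.023), all below the WT range of 78.1 to 104 CPM. Tef was at 194, 194 and 199 CPM in GAB294 and 37.8 to 87.3 CPM in the other 5 tumours (adjusted p = 0.026 over the 3 animal numbers, 0.059 for GAB294 against GAB242). Per1 went the other way, at 95.9, 102 and 124 CPM in GAB242 and 31.1 to 43.4 CPM in GAB294 (-1.52 ± 0.20, adjusted p = 0.03), with CAB28 at 38.2 and 30.0 CPM. Arntl was not called (52.1 to 79.4 CPM in GAB294, 130 to 173 CPM in GAB242, adjusted p = 0.10). The calls of GAB294 against GAB242 held in 12 of 18 alternatives for Per3, 11 for Dbp, 9 for Nr1d2 and 8 for Per1.

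The 2 beta-globin genes and Tfrc were higher in GAB242, but the summed red blood cell markers were not. Hbb-bs and Hbb-bt, the beta-globin genes of the C57BL/6 haplotype, were at 5.88, 5.48 and 9.54 CPM and at 14.0, 11.5 and 13.6 CPM in GAB242. In GAB294 they were at 0.227, 0.149 and 0.0475 CPM (adjusted p = 0.011) and at 0.908, 1.13 and 0.380 CPM (adjusted p = 0.023). CAB28 had 1.46 and 2.23 CPM of Hbb-bs and 0.644 and 1.59 CPM of Hbb-bt, so GAB242 was the highest animal for both. Tfrc, the transferrin receptor by which dividing and red cell precursors take up iron, was at 33.9, 40.7 and 55.3 CPM in GAB242 and 10.4 to 13.03 CPM in the other 5 tumours (adjusted p = 0.023). The call of Tfrc held in 10 of 18 alternatives. Of the red blood cell marker list, 2 of 4 genes tested were called, the 2 beta-globins. The sum over the whole list did not separate the animals: it was 46.0 to 63.4 CPM in GAB242, 15.2 to 63.9 CPM in GAB294 and 30.2 to 78.8 CPM in CAB28.

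Distances between whole profiles were smaller on average for tumours of one animal number than for other pairs of their genotype, but the medians were close for GAB242 and GAB294. The distance was the root mean square difference of log2 CPM over autosomal genes. The 7 pairs with the same number lay between 0.849 and 1.13 (mean 1.01, median 1.08), the 15 WT pairs between 0.657 and 0.761, and the 9 pairs of a GAB242 with a GAB294 tumour between 0.957 and 1.41 (mean 1.115, median 1.09). Among the 9 Gls2-CreERT2 libraries, the mean distance within animal numbers was smaller than under most reassignments of the numbers (exact permutation test, one-sided, p = 0.0226, 1680 arrangements, smallest possible p 0.00119). Without GAB235-S, a library of another animal whose profile stands apart, the exact p was 0.0679 over 560 arrangements. The CAB28 pair was the 3rd closest of 45 pairs of its genotype. For 7 of the 8 tumours, the nearest library of the genotype had the same number. The exception was CAB28-L, which lay nearer to CAB26-L (0.815) than to CAB28-S (0.871).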

How the data were processed

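RNA from frozen tissue was extracted with TRIzol and a column kit, and libraries were made with a Nugen Ovation kit from 100 ng of RNA, per the labels' protocols. The authors deposited a table of raw read counts by gene symbol for all 26 libraries. The genome build was mm10 per the submitters' processing notes; what aligned and counted the reads, whether strand was used and which gene models served were not given in the sources used here. Overlapping genes and near-identical copies are therefore uncertain. Of 35976 symbols, 32190 were placed on autosomes with GENCODE M21 and RefSeq.

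Counts were analysed with edgeR 4.0.16 in R 4.3.3 (TMM, robust quasi-likelihood, Benjamini-Hochberg, threshold 0.05). For the fit within animal numbers, genes needed 10 counts in 2 libraries. The fit between animal numbers used edgeR's filterByExpr by animal number with a minimum count of 10. Within an animal number, each tumour was a group of its own and the 6 WT libraries gave all residual spread. Between animal numbers, the 8 tumours were grouped by number. SDs and distances used log2 CPM of the deposited counts with a prior count of 2. limma 3.58.1 (voom) and DESeq2 1.42.0 were alternatives. Fits were tested on simulated data. Named genes were those with the largest range per animal number, the largest or firmest differences between them, and up to 3 per list. Clock genes, Tfrc and Axin2 were added after their values were seen. Members and lists were chosen with earlier results of these data known. Chromosome medians were added after seeing the data.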

Additional observations from a re-analysis of the deposited data

Results flagged for a closer look

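The WT values of named genes that reached 5 CPM in a WT liver, and the library totals, were searched by Dixon's test. In 4 of these 46 sets of values, 1 liver stood apart from the other 5, a rate of 8.70% where chance gives about 1 in 20. Clec4f was at 66.1 CPM in WT replicate 1 against 74.3 to 79.3 CPM in the others. Cwc22 was at 18.3 CPM in replicate 6 against 12.1 to 13.9 CPM. Zfp970 was at 40.3 CPM in replicate 1 against 72.1 to 94.1 CPM, and Pttg1 at 5.08 CPM in replicate 5 against 10.8 to 11.8 CPM.

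The L minus S differences of CAB28 and GAB242 were both called, with opposite signs, in 13 named genes. Only genes with at least 3 counts in each of these tumours were kept. An interaction term in edgeR's quasi-likelihood test with Benjamini-Hochberg adjustment was called in each gene. As the genes were picked by their opposite signs, that call was all but fixed in advance and adds no support. Values are the log2 difference L minus S in GAB242 less that in CAB28. They were negative for the zonation genes Glul (-3.37), Cyp1a2 (-3.52), Cyp2e1 (-1.75), Cyp2f2 (-4.28), Etnppl (-6.15) and Aspg (-3.82). They were also negative for the Kupffer cell gene Clec4f (-1.88), the collagen gene Col23a1 (-7.67) and Rgsl1 (-6.15). They were positive for the fetal genes H19 (15.78) and Igf2 (9.97), for Igdcc4 (11.30) and for the trefoil gene Tff3 (12.48). The adjusted p of the difference ran from 2.1e-08 for H19 to 0.0018 for Etnppl. Each animal gave 1 tumour with each letter, the spread came from the WT livers, and the 2 animals have different Cre drivers.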

How the results depend on the processing

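With the spread taken from all 26 libraries, the calls within CAB28, GAB242 and GAB294 were 0, 0 and 1, against 489, 3421 and 2827. limma-voom gave 1358, 5980 and 5176. Within CAB28, thinning tumour counts to the WT median gave 282, and keeping genes with at least 1 CPM in WT gave 263. Leaving out 1 library gave 357 to 617 within CAB28, 556 (without GAB242-L) to 4103 within GAB242 and 698 (without GAB294-M1) to 3523 within GAB294. Calls over the 3 animal numbers (75) and for GAB294 against GAB242 (38) became 39 and 25 with limma-voom, 902 and 483 with DESeq2, 696 and 276 with all 26 libraries in the fit, and 9 to 63 and 5 to 25 when 1 tumour was left out. Without a filter on low counts the first became 129, and with only the 6 GAB libraries the second became 21. With the title letter as a replicate block the counts were 0 and 2 in edgeR (1249 and 1035 at an unadjusted p under 0.05), and the letters are not stated to pair samples. The median spread ratio ran from 1.45 to 1.60 when 1 tumour was left out. The permutation p of the distances was 0.0679 without GAB235-S. No named gene changed direction within an animal number or in GAB294 against GAB242, nor did any of the 11 chromosome medians recomputed. Direction was not followed for lists or for the test over the 3 animal numbers. List counts moved by over 1.5 times in 28 cases and by less in 170. Single genes lost their call in 13 of 175 gene and alternative combinations within CAB28, 20 of 289 within GAB242, 24 of 327 within GAB294, 23 of 153 over the 3 animal numbers and 130 of 360 for GAB294 against GAB242. These 11 medians moved by less than the largest WT pair median in all 55 alternatives. Medians near 0 could change sign with adjustment for gene length and GC, such as GAB242-L minus S on chromosome 1 (-0.02 and 0.00043). The cause of these changes was not tested. By design, the spread from all 26 libraries includes differences between animals, GAB235-S among them, and leaving out a library leaves fewer libraries.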
